A study of Homo sapiens with 6 samples.

Results

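The genes described are 4 members of the carcinoembryonic antigen family (CEACAM1, CEACAM5, CEACAM6 and CEACAM7) and 5 membrane-bound mucins (MUC1, MUC4, MUC13, MUC16 and MUC20), 9 of the 19775 genes measured on the array. They were read through 28 of its 54675 probe sets, which are all the probe sets annotated to exactly 1 of these 9 symbols. The genes were chosen by the difference in log2 signal between the lines compared here, so that difference is given for them as a description and without a test.

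The study asked which transcripts separate gefitinib-resistant from gefitinib-sensitive lung cancer cells. PC9/gef, the resistant line, was obtained from parental PC9 by continued exposure to rising concentrations of gefitinib, a drug that blocks the EGFR kinase. The sensitive line, PC9, is an established human lung adenocarcinoma cell line. Total RNA of 3 PC9/gef and 3 PC9 samples, grown in RPMI-1640 with fetal bovine serum, was hybridised to 1-colour Affymetrix U133 Plus 2.0 arrays. The samples of each line are labelled biological replicates, and it is not stated whether they came from separate cultures, so the spread between them may be partly technical. PC9/gef is 1 resistant line, and a difference from PC9 is a difference between these lines. Whether it was cloned, and whether gefitinib was in the medium at harvest, is not given in the sources used here.

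CEACAM proteins are cell surface glycoproteins of the immunoglobulin superfamily. CEACAM1 spans the membrane and carries inhibitory signalling motifs in its tail, while CEACAM5, CEACAM6 and CEACAM7 are held at the surface by a glycosylphosphatidylinositol (GPI) anchor and mediate adhesion between cells. Membrane mucins carry a long extracellular domain dense in O-linked glycans that forms a barrier on the apical face of epithelia, and several of them associate with receptor tyrosine kinases, as MUC4 does with ERBB2. Carcinoembryonic antigen (CEACAM5), MUC1 and MUC16 are shed into blood and serve as tumour markers in lung and other adenocarcinomas.

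The deposited values are log2 signals. A value of 2.65, the 95th percentile of the mean signals of 135 probe sets for olfactory receptors, was taken as the background level, and each gene was read from the probe set whose mean over the 6 arrays was highest. Any 2 arrays of the same line correlated at 0.9992 or more, and any 2 arrays of different lines at 0.9944 or less. Of the epithelial and lung adenocarcinoma markers, 7 of 10 lay above background, among them EPCAM at 14.45 in PC9/gef and 14.46 in PC9, whereas the lung lineage genes NKX2-1, NAPSA and SFTPC were at background in both lines. SFTPB, a surfactant protein gene of the same list, lay above it, at 4.33 in PC9/gef and 4.31 in PC9. In limma, 2 markers of this list were higher (KRT7 and CDH1) and 2 lower (KRT8 and KRT18) in PC9/gef, and its summed level ranged over 94.997-95.33 in PC9/gef and 94.98-95.07 in PC9. Of 10 leukocyte markers, 8 were at background, including PTPRC, the common leukocyte antigen. ITGAM rose by 1.16 and LYZ, lysozyme, fell by 1.09 on the log2 scale (limma, adjusted p = 0.0458 and 0.00096), and the summed level was 30.8-31.6 in PC9/gef and 31.0-31.3 in PC9. Of 10 fibroblast markers, 7 were at background, COL1A1 alone passed (log2 difference 0.52), and the sums were 30.88-30.90 in PC9/gef and 30.21-30.67 in PC9. The part of these marker differences in the results was not tested.

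CEACAM6 carried the largest difference among the 9 genes. Its promoter is shown first because CEACAM6 had the largest difference of the group, and those of CEACAM5, CEACAM7 and CEACAM1 because they resemble it in sequence while the genes differed in signal. The MUC1 promoter is shown as a mucin promoter of unlike sequence. Each sequence is the 250 bases before the gene's start in RefSeq on build GRCh38.p14, on the gene's own strand. CEACAM6 lies at chr19:41755280-41755529 (plus strand), CEACAM5 at chr19:41708376-41708625 (plus strand), CEACAM7 at chr19:41688271-41688520 (minus strand), CEACAM1 at chr19:42528482-42528731 (minus strand) and MUC1 at chr1:155192916-155193165 (minus strand). Capitals mark matches, on either strand, to the Sp1 box GGGCGG, the USF E-box CACGTG, the SNAI2 E-box CAGGTG, the AP-1 site TGACTCA or the STAT site TTCNNNGAA.
CEACAM6 promoter: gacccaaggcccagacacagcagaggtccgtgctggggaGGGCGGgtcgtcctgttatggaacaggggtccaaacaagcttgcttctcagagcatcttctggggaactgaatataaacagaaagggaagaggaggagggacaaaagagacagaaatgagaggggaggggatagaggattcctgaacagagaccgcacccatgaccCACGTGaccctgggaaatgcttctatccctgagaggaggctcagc
CEACAM5 promoter: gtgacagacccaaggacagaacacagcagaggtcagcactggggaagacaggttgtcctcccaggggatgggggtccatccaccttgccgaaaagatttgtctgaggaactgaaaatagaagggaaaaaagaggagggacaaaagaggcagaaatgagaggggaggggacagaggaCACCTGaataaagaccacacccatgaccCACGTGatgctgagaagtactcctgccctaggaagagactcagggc
CEACAM7 promoter: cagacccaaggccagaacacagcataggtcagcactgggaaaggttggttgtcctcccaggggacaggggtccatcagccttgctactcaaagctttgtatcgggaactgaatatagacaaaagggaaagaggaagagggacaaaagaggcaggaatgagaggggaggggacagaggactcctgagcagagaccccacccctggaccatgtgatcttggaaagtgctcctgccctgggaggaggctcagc
CEACAM1 promoter: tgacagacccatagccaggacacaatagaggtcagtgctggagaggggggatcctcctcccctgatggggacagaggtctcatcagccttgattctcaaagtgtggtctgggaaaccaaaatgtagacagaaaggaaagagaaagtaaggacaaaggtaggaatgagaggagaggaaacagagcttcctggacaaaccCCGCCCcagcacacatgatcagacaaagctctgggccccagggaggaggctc
MUC1 promoter: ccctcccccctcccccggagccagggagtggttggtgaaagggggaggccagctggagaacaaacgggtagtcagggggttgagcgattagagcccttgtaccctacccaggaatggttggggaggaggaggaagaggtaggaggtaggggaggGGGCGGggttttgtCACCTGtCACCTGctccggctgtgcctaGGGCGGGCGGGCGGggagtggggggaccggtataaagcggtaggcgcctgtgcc

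The 4 CEACAM windows resembled each other more than they resembled any mucin window. Identity is the share of alignment columns, gaps included, that held the same base. It was 80.5% for CEACAM5 and CEACAM7, 79.9% for CEACAM6 and CEACAM7, and 74.6% for CEACAM5 and CEACAM6. CEACAM1 was 71.9% identical to CEACAM7, 68.2% to CEACAM6 and 66.2% to CEACAM5. The other 22 of the 28 pairs among the 8 genes with an entry ranged over 44.2-53.3%. CACGTG was found in the windows of CEACAM5 (starting at -46) and CEACAM6 (starting at -45) and in no other of the 8, against 6.34% of all 35116 RefSeq windows of this length. CAGGTG matched once in CEACAM5 and at 2 places in MUC1, against 17.5% of all windows. GGGCGG matched in CEACAM6, CEACAM1, MUC4 and MUC16 and at 4 places in MUC1, against 42.6% of all windows. TGACTCA matched only in MUC13 (4.2% of all windows) and TTCNNNGAA only in MUC4 (6.57%). A match describes letters in the window and is no evidence that a factor binds there.

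CEACAM6 is the broadly expressed GPI-anchored family member, known for adhesion to other CEACAMs and for bacterial binding. Probe set 211657_at gave 10.17, 10.00 and 10.19 in PC9/gef, against 14.28, 14.34 and 14.65 in PC9. The means were 10.12 ± 0.10 in PC9/gef and 14.43 ± 0.20 in PC9 (SD, n = 3 each), a log2 difference of -4.31 (standard error 0.12), or 19.8-fold lower in PC9/gef. The arrays of the lines did not overlap, and the gene stood at position 4 of 19775 when genes were ordered from the largest fall. Its other probe set, 203757_s_at, gave 8.92, 8.88 and 8.83 in PC9/gef, against 14.15, 14.16 and 14.15 in PC9, 38.8-fold lower (log2 difference -5.28, standard error 0.025). Both CEACAM6 probe sets thus stood far below PC9 on each PC9/gef array and still lay well above background there. In cells of 1 line, fewer expressing cells and less RNA per cell cannot be told apart.

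**Figure D1:**
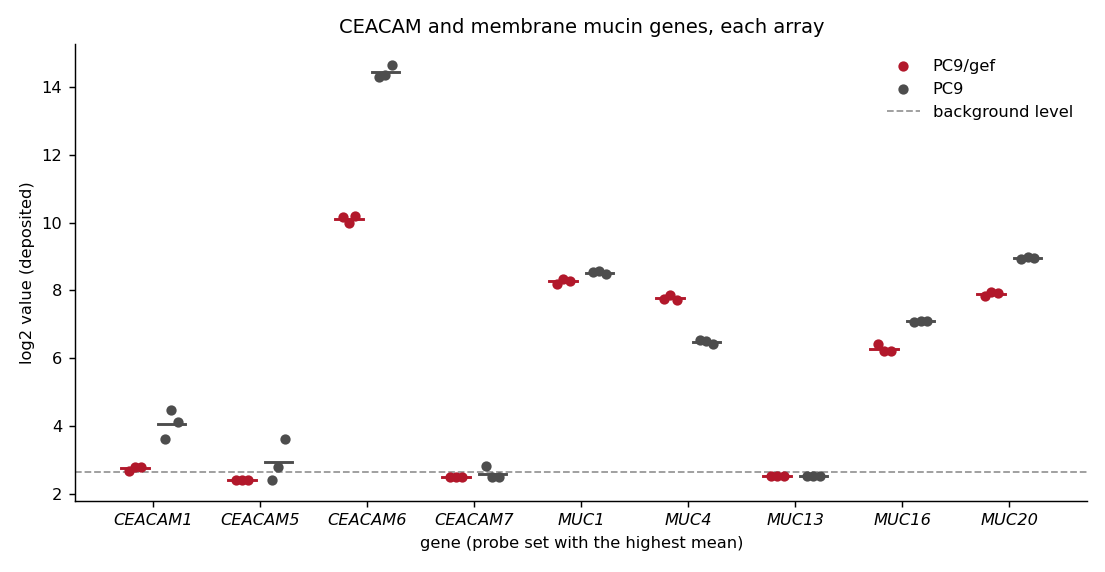
Deposited log2 value of each of the 9 genes on each array (points) with the line mean (horizontal bar), PC9/gef in red and PC9 in grey; the dashed line is the background level of 2.65. CEACAM6 shows the widest gap, MUC4 is the gene with higher PC9/gef arrays, and CEACAM7 and MUC13 lie at background; heights of different genes are not comparable.

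CEACAM1, the transmembrane member with inhibitory motifs, was low in both lines. Probe set 209498_at gave 2.69, 2.80 and 2.80 in PC9/gef, only just above background, against 3.62, 4.47 and 4.13 in PC9. The means were 2.76 ± 0.065 in PC9/gef and 4.07 ± 0.43 in PC9 (SD, n = 3 each), a log2 difference of -1.31 (standard error 0.24), or 2.48-fold lower. The arrays did not overlap, with the wider spread in PC9. A second probe set, 206576_s_at, gave 2.75, 2.83 and 2.76 in PC9/gef, against 3.29, 2.91 and 2.83 in PC9, and its arrays overlapped at a log2 difference of -0.23. The other 3 CEACAM1 probe sets were at background in both lines, so the lower signal was seen through 1 of 5 probe sets.

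CEACAM5, the carcinoembryonic antigen itself, was at background in PC9/gef. Probe set 201884_at gave 2.41, 2.41 and 2.41 in PC9/gef, against 2.41, 2.78 and 3.62 in PC9. All 3 PC9/gef arrays and PC9 replicate 1 were under the background level, where values carry no order, and the PC9 signal above background came from replicates 2 and 3. The log2 difference was -0.53 (standard error 0.34), and -0.19 without PC9 replicate 3. With PC9/gef set to the background level, its mean was 1.22-fold lower than that of PC9, a value that rests on PC9 replicates 2 and 3. CEACAM7, known from colon epithelium, was at background in both lines on all 3 of its probe sets; the one with the highest mean, 211848_s_at, gave 2.49, 2.49 and 2.49 in PC9/gef, against 2.82, 2.49 and 2.49 in PC9. The 3 genes whose promoter windows were the most alike of the 28 pairs thus comprised CEACAM6, with its signal far above background in both lines, and 2 genes at or near background in both lines.

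MUC4, a large mucin that acts as an intramembrane ligand of ERBB2, was the single member with higher signal in PC9/gef. Probe set 217109_at gave 7.74, 7.87 and 7.73 in PC9/gef, against 6.54, 6.50 and 6.42 in PC9. The means were 7.78 ± 0.078 in PC9/gef and 6.49 ± 0.061 in PC9 (SD, n = 3 each), a log2 difference of 1.29 (standard error 0.055), or 2.45-fold higher. Each PC9/gef array exceeded each PC9 array by more than 1 log2 unit. Probe set 217110_s_at gave 5.31, 5.00 and 5.19 in PC9/gef, against 4.04, 3.36 and 3.77 in PC9, 2.72-fold higher. The other 2 probe sets above background overlapped between the lines, 204895_x_at at a log2 difference of 0.16 and 235055_x_at at 0.011, and the last 2 of the 6 were at background. The higher MUC4 signal thus appeared in 2 of its 4 probe sets above background.

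MUC20, a mucin that associates with the MET receptor, was lower in PC9/gef on 3 of its 4 probe sets. Probe set 226622_at gave 7.83, 7.96 and 7.94 in PC9/gef, against 8.91, 8.98 and 8.97 in PC9. The means were 7.91 ± 0.069 in PC9/gef and 8.95 ± 0.035 in PC9 (SD, n = 3 each), a log2 difference of -1.04 (standard error 0.043), or 2.06-fold lower. No PC9/gef array reached the lowest PC9 array. Probe set 230043_at gave 4.41, 4.63 and 4.58 in PC9/gef, against 5.73, 5.67 and 5.60 in PC9, 2.18-fold lower. Probe set 231941_s_at gave 6.67, 6.81 and 6.83 in PC9/gef, against 7.77, 7.71 and 7.58 in PC9, 1.89-fold lower. The fourth, 243774_at, overlapped between the lines at a log2 difference of -0.013.

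MUC16 and MUC1, both shed tumour antigens, had smaller differences. The only MUC16 probe set, 220196_at, gave 6.42, 6.21 and 6.22 in PC9/gef, against 7.07, 7.10 and 7.11 in PC9. This was a log2 difference of -0.81 (standard error 0.066), or 1.75-fold lower, with means of 6.29 ± 0.12 in PC9/gef and 7.09 ± 0.020 in PC9 (SD, n = 3 each). For MUC1, whose cytoplasmic tail binds beta-catenin and several kinases, 213693_s_at gave 8.20, 8.34 and 8.28 in PC9/gef, against 8.54, 8.56 and 8.48 in PC9. Neither gene's arrays overlapped between the lines. The MUC1 difference was -0.26 (standard error 0.045), or 1.19-fold lower, and a second probe set, 207847_s_at, gave 5.73, 5.69 and 5.99 in PC9/gef, against 6.69, 6.40 and 6.41 in PC9, 1.62-fold lower. The third MUC1 probe set was at background. MUC13, a mucin of the gastrointestinal epithelium, was at background on both probe sets, with a mean of 2.52 in either line.

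Over the 28 probe sets, 12 were at background in both lines and 16 were above it. Of these 16, 12 did not overlap between the lines, 2 with higher and 10 with lower PC9/gef arrays. The 10 include the CEACAM5 probe set 201884_at, whose lowest PC9 array (2.4146) and highest PC9/gef array (2.4121) were both under the background level. Of all probe sets above background, 60.3% did not overlap, 26.1% with higher and 34.2% with lower PC9/gef arrays. More than 2-fold, 2 of the 16 probe sets were higher and 5 lower, where 2.05% of all probe sets above background were higher and 1.8% lower by that much. As genes, 1 of the 9 (MUC4) was over 2-fold higher and 3 (CEACAM1, CEACAM6 and MUC20) over 2-fold lower, where 1.54% of all 19775 genes were over 2-fold higher and 1.34% over 2-fold lower. The median log2 difference was -0.53 over the 9 genes, where that of all 19775 genes was -0.00065. It was -0.81 over the 7 above background, where that of all genes above background was -0.0098. These counts restate how the genes were picked.

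**Figure D2:**
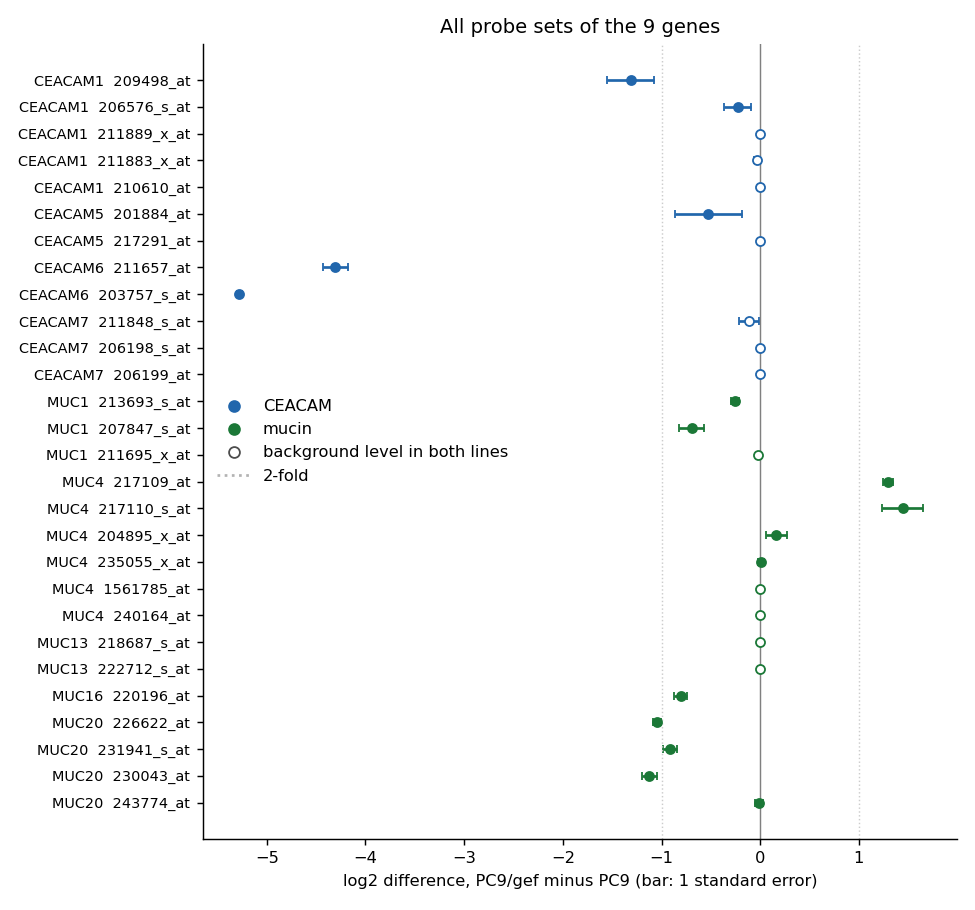
Log2 difference, PC9/gef minus PC9, of each of the 28 probe sets, with 1 standard error as bar; open points are at background in both lines and dotted lines mark 2-fold. The 2 CEACAM6 probe sets lie at -4.31 and -5.28, and the largest positive ones are 2 of the 6 MUC4 probe sets at 1.29 and 1.44.

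On the chromosome, MUC20 and MUC4 are neighbours on chromosome 3 and differed in opposite directions, at log2 differences of -1.04 and 1.29. Of their measured neighbours, TNK2, a tyrosine kinase gene beyond MUC4, fell by 0.56 on the log2 scale (limma, adjusted p = 0.0062), TFRC, the transferrin receptor, fell by 0.44 (adjusted p = 0.0031), and PPP1R2 fell by 0.10 (adjusted p = 0.0299). MIR570HG, the measured gene next to MUC20, had a difference of 0.0065 (adjusted p = 0.945). The 4 neighbours named here therefore included none that rose with MUC4.

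On chromosome 19, CEACAM6 lies between CEACAM5 and CEACAM3, a granulocyte receptor for bacteria. CEACAM3 had a mean of 3.40 in PC9/gef and 3.50 in PC9, a difference of -0.097 (limma, adjusted p = 0.142). The other measured genes of this stretch, CEACAM21, LOC105372404, CEACAM4, LYPD4 and DMRTC2, were at background. Around MUC16, ZNF558 and ZNF317 had differences of 0.045 and -0.15 (limma, adjusted p = 0.790 and 0.0517). Around MUC13, itself at background, the 3 measured genes looked up on each side all had positive differences. HEG1, a transmembrane protein of the vascular endothelium, rose by 1.72 (limma, adjusted p = 0.0017), and ITGB5, an integrin subunit, rose by 0.52 (adjusted p = 0.00088). ZNF148 rose by 0.71 (adjusted p = 0.00071) and UMPS by 0.31 (adjusted p = 0.00035). KALRN and SLC12A8 had differences of 0.43 and 0.23 and did not pass (adjusted p = 0.393 and 0.125). Of the neighbours of MUC1 only DPM3 passed, with a rise of 0.65 (limma, adjusted p = 0.0044), and none of those of CEACAM1 passed. The neighbours were looked up after the values of the 9 genes were known.

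**Figure D3:**
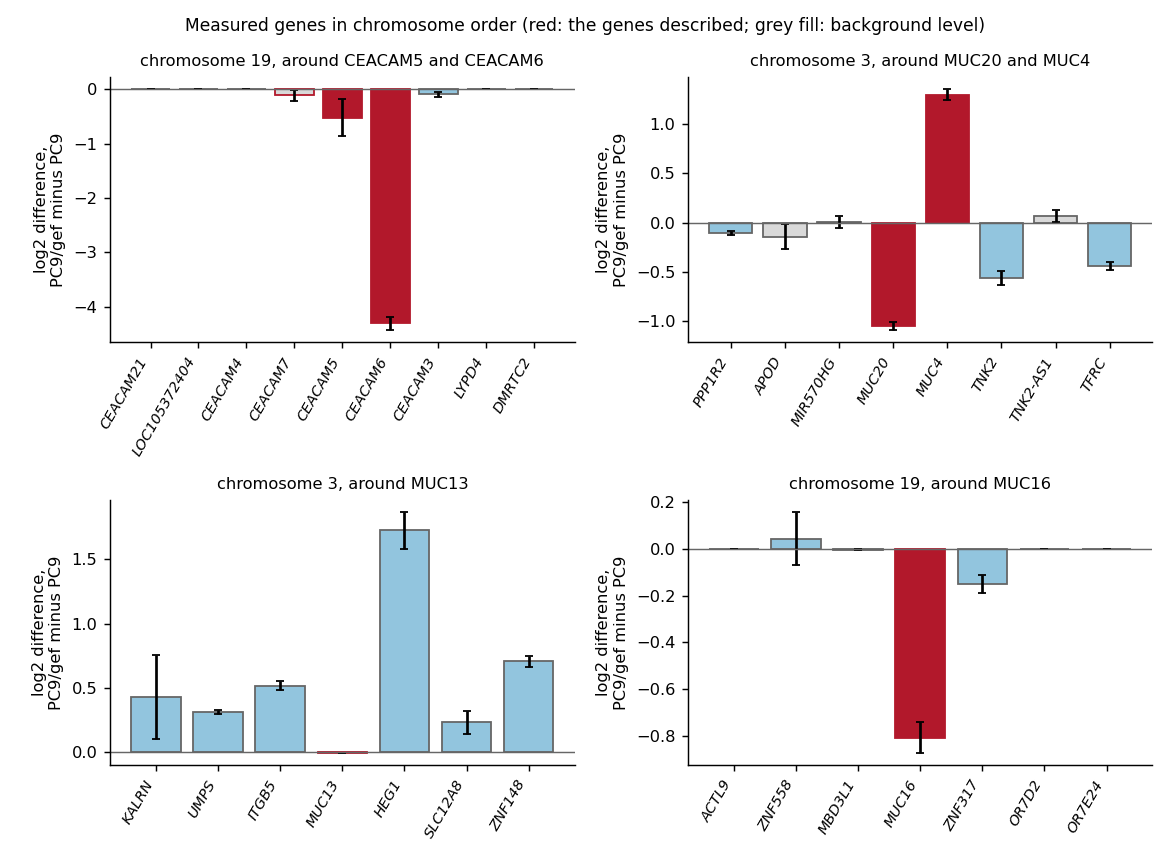
Log2 difference, PC9/gef minus PC9, with 1 standard error, of up to 3 measured genes on each side of CEACAM7, CEACAM5 and CEACAM6, of MUC20 and MUC4, of MUC13 and of MUC16, in RefSeq chromosome order; the described genes are red and grey fill marks background level in both lines. MUC20 at -1.04 and MUC4 at 1.29 stand side by side with opposite signs, and CEACAM6 at -4.31 stands beside genes at or near background.

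Further family members and other mucins were compared in the same fit, in which limma called 27.6% of all 19775 genes at an adjusted p under 0.05, 14.1% higher and 13.5% lower, and 45% of the genes above background. Of 18 further CEACAM and pregnancy-specific glycoprotein genes, 14 were measured and 10 of these were at background in both lines. None of the 14 passed limma at that threshold, while 0 higher and 4 lower had an unadjusted p under 0.05. Of these 4, CEACAM4, PSG7 and PSG11 had log2 differences of -0.0036, -0.0037 and -0.0028. They were at background in both lines, where values carry no order. PSG9, above background, had a log2 difference of -0.046. The methods' t-test put 0 higher and 5 lower at that unadjusted threshold, and 3 lower after Benjamini-Hochberg adjustment. Without PC9/gef replicate 2, 1 gene passed limma downwards. The median log2 difference of the 4 above background was -0.033, where that of all genes above background was -0.0098. Of 17 other mucins, 14 were measured and 9 were at background. Only CD164, a sialomucin of haematopoietic adhesion, passed, with 11.06, 11.00 and 11.15 in PC9/gef, against 11.33, 11.32 and 11.41 in PC9. Each CD164 array of PC9/gef lay below each of PC9, by 1.22-fold on average (log2 difference -0.28, adjusted p = 0.0156), and the call was lost without PC9/gef replicate 1 (adjusted p = 0.0638) or without PC9 replicate 1 (adjusted p = 0.0513). Without PC9/gef replicate 2, 2 of these mucins passed downwards. No other mucin passed upwards, by limma at either threshold or by the methods' t-test.

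Mucin-type O-glycosylation, by which sugars are built on the serines and threonines of these proteins, moved in both directions. Of 40 measured genes, 11 were at background, 8 were higher and 10 lower in PC9/gef by limma, beside 14.1% and 13.5% of all genes. Of the 29 above background 11 did not pass, where 45% of all genes above background were called. The count of higher genes was 6 without PC9/gef replicate 2, 4 without PC9 replicate 2 and 5 without any 1 of the other 4 arrays. The median difference above background was -0.038. Among the genes that fell were both sialyltransferases named by size. ST3GAL4 gave 5.11, 4.73 and 5.15 in PC9/gef, against 6.32, 5.98 and 6.06 in PC9 (2.18-fold lower, adjusted p = 0.0086). ST3GAL1, which caps the core 1 O-glycan with sialic acid, gave 8.13, 8.20 and 8.13 in PC9/gef, against 9.01, 8.98 and 9.02 in PC9 (1.80-fold lower, adjusted p = 0.00014). GALNT3, one of the transferases that start the O-glycan, gave 9.75, 9.77 and 9.72 in PC9/gef, against 10.47, 10.44 and 10.47 in PC9 (1.64-fold lower, adjusted p = 9.8e-05). None of these overlapped between the lines. GCNT1, the core 2 branching enzyme, went the other way, with 6.36, 6.12 and 6.12 in PC9/gef, against 5.39, 5.59 and 5.41 in PC9 (1.67-fold higher, adjusted p = 0.0069). C1GALT1C1, the chaperone of the core 1 synthase, chosen after its values were seen, fell by 0.65 (adjusted p = 2.8e-05). The named sialyltransferases were lower and the named core 2 enzyme higher. Genes were named here by the size of their difference or after their values were seen. Their directions therefore do not describe the list, in which 8 genes were higher and 10 lower.

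The list of binding partners, sheddases and GPI attachment genes also held AGR2, a gene of mucin folding, which had the largest difference of any list. The next largest among those named from this list was LGALS1 at 0.63. AGR2, an endoplasmic reticulum protein needed for mucin folding in mouse intestine, gave 8.52, 8.41 and 8.44 in PC9/gef, against 11.66, 11.64 and 11.62 in PC9. It was 9.10-fold lower (log2 difference -3.19, standard error 0.034, limma adjusted p = 2.8e-05), with no overlap. Of the 21 measured genes in this list, 4 were higher and 6 lower, beside 14.1% and 13.5% of all genes. Of the 20 above background 10 did not pass, where 45% of all genes above background were called, and the median difference above background was -0.046. ERBB2, the receptor that MUC4 binds, gave 8.15, 8.10 and 8.07 in PC9/gef, against 8.78, 8.69 and 8.62 in PC9 (log2 difference -0.58, adjusted p = 0.0018). The receptor was therefore lower in the line in which its mucin ligand had the higher signal. CTNNB1, the beta-catenin that binds the MUC1 tail, was 1.28-fold lower, at 12.11, 12.08 and 12.16 in PC9/gef, against 12.45, 12.48 and 12.51 in PC9 (adjusted p = 0.0015). LGALS1, a galectin that binds surface glycans, was 1.54-fold higher, at 13.01, 13.01 and 12.97 in PC9/gef, against 12.42, 12.34 and 12.35 in PC9 (adjusted p = 0.00034).

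Of 20 measured transcription factors known to act on genes of this kind, 2 were higher and 6 lower, beside 14.1% and 13.5% of all genes. These 8 were among 14 above background, where 45% of all genes above background were called, and the median difference of the 14 was -0.10. SNAI2, a repressor of epithelial genes, gave 8.17, 8.22 and 8.13 in PC9/gef, against 7.01, 7.15 and 7.14 in PC9 (2.11-fold higher, limma adjusted p = 0.00035). It was the single factor of the list over 2-fold higher. PPARG gave 10.24, 10.15 and 10.21 in PC9/gef, against 11.23, 11.20 and 11.13 in PC9 (1.99-fold lower, adjusted p = 0.00024). FOXA1, a pioneer factor of airway epithelium, gave 4.47, 4.14 and 4.29 in PC9/gef, against 5.27, 5.50 and 5.08 in PC9 (1.98-fold lower, adjusted p = 0.0096). GATA6, a factor of lung and gut development, was 1.48-fold lower, at 7.45, 7.37 and 7.48 in PC9/gef, against 7.85, 8.09 and 8.06 in PC9 (adjusted p = 0.0082). The arrays of these 4 factors did not overlap between the lines.

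**Figure D4:**
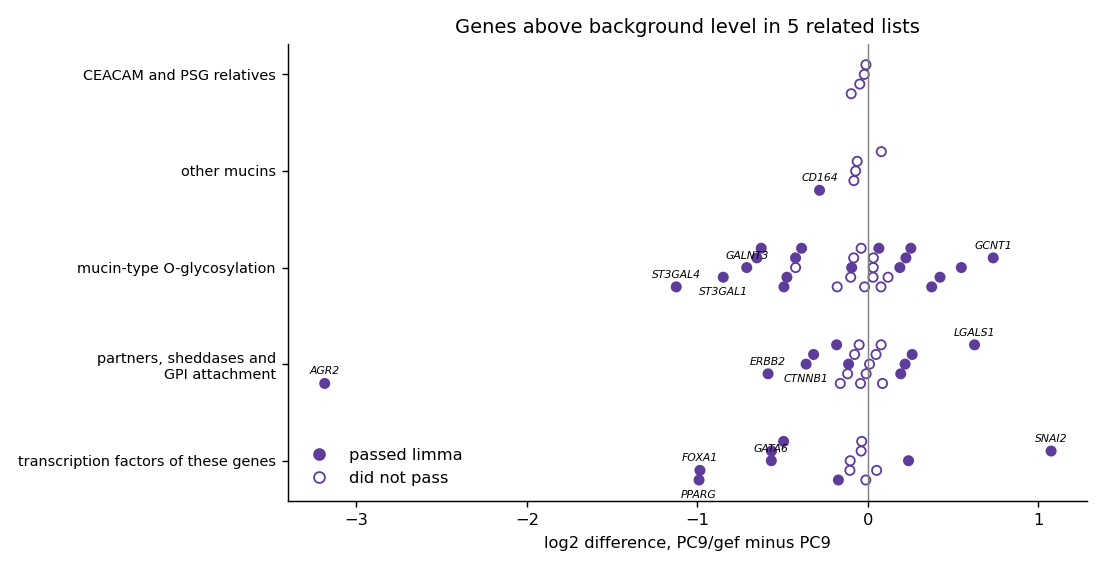
Log2 difference, PC9/gef minus PC9, of each gene above background in 5 lists of related genes; filled points passed limma at an adjusted p under 0.05 and open points did not. AGR2 at -3.19 lies farthest from 0, SNAI2 at 1.08 is the highest, and the CEACAM relatives and other mucins lie close to 0.

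Genes with the profile most like a member were found by Euclidean distance between mean-centred log2 profiles over the 6 arrays. The 5 nearest to CEACAM6 were RARRES1 at a distance of 0.355, SLC1A6 at 0.726, LINC00960 at 0.737, S100A8 at 0.744 and CST2 at 1.002. RARRES1, a retinoid-responsive membrane gene, had a log2 difference of -4.34, close to that of CEACAM6. S100A8, a calcium-binding protein of neutrophils and inflamed epithelium, had a difference of -3.92. The 5 nearest to MUC4 were PEG10 at 0.0892, DDB2 at 0.109, LCK at 0.109, LARP6 at 0.128 and ADAM12 at 0.139. These lay closer to MUC4 than any gene lay to CEACAM6, which does not show that MUC4 has more genes of like pattern. By absolute log2 difference CEACAM6 stood at position 9 and MUC4 at position 303, so few genes matched CEACAM6 in size of difference. With 3 arrays a line the distance is set mainly by the difference between the lines, and an exact two-sided permutation test of a single gene could reach no p below 0.1.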

How the data were processed

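Total RNA of 3 PC9/gef and 3 PC9 samples was measured on Affymetrix U133 Plus 2.0 arrays. The authors deposited 1 table of log2 signals, already normalised, which ranged over 1.65-15.72. The supplementary methods name GC-RMA in GeneSpring GX and the submitters' processing notes name RMA, with the version not given in the sources used here. Scanner intensities were not used here, so the authors' normalisation was taken as it is. The number of arrays limits the precision. Lines were assigned from the sample labels, and 0 columns belonged to no sample.

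Of 54675 probe sets, 62 controls were left out. Of the 54613 others, the annotation gave 41091 a single gene, 1801 more than 1 and 11721 no gene, and genes were built from the single-gene ones, by taking the probe set whose 6-array mean was highest. Both lines were compared with limma 3.58.1 in R 4.3.3 (lmFit and eBayes, no covariate) over all 19775 genes, with Benjamini-Hochberg adjustment and a threshold of 0.05. Errors of single probe sets of the 9 genes came from the same fit over all probe sets. Folds against a line at or under the background level of 2.65 used that level as a floor.

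The 9 genes and the 8 lists (CEACAM and PSG relatives, other mucins, O-glycosylation, partners with sheddases and GPI attachment, transcription factors, and epithelial, leukocyte and fibroblast markers) were chosen with earlier results of these data known. Named were all 9 genes, up to 4 genes of each other list with the largest difference among those that passed, lay above background and did not overlap, and the 5 nearest profiles to CEACAM6 and to MUC4. Of the marker lists the genes that passed are named in the description of the samples. Some measured chromosome neighbours, and the CEACAM and PSG relatives with an unadjusted limma p under 0.05, are also named.

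Promoter windows and gene order came from RefSeq tables of build GRCh38.p14, in which 8 of the 9 genes had a promoter entry. Where 2 windows were listed for a gene the first was used. Windows were aligned with Biopython 1.88 under Python 3.11.15, and plots were drawn with matplotlib 3.10.9. Probe sets whose names end in _s_at or _x_at may bind transcripts of related genes.

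The fit was tested on simulated data for PC9/gef against PC9 over 19775 genes. It recovered 88% of 100 genes shifted by 1 log2 unit, 96% of 100 shifted by 2, and called 0.0409% of unshifted genes. Only genes with a mean signal well above background were shifted, and far fewer than were called in the data. Noise was drawn independently for each gene. The recovery rates therefore do not describe genes near background, such as CEACAM1 and CEACAM5. Alternatives were quantile normalisation, median centring, trended and robust moderation, genes above background only, the replicate number as a block, the mean over a gene's probe sets, no _x_at or _s_at probe sets, the t-test of the study's methods and each array left out.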

Additional observations from a re-analysis of the deposited data

How the results depend on the processing

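No difference of the 9 genes changed sign under any alternative that gave a value. MUC1 and MUC13 had no value without _x_at and _s_at probe sets. Several alternatives could not change a sign. Trended and robust moderation, the background filter, the replicate block and the fit over all probe sets leave a difference of means as it is. The array medians were already equal, so median centring changed nothing either. Leaving out an array could not reverse a sign, since the arrays of none of the 9 genes overlapped between the lines. Quantile normalisation left the values nearly as they were (CEACAM6 -4.31). Without _x_at and _s_at probe sets, only CEACAM7 was read from another probe set. The unchanged signs were thus largely fixed in advance. For CEACAM7 and MUC13, at background in both lines, the sign carries no meaning. With each array left out in turn, log2 differences ranged over -4.38 to -4.19 (CEACAM6), -1.54 to -1.11 (CEACAM1), -0.79 to -0.19 (CEACAM5), -0.29 to -0.22 (MUC1), 1.25 to 1.32 (MUC4), -0.88 to -0.77 (MUC16) and -1.07 to -1.01 (MUC20), and 1 to 1 of the 9 were over 2-fold higher and 3 to 3 lower. The same exercise gave 2196-2477 higher and 2022-3135 lower genes in all, 0-1 lower CEACAM and PSG relatives, 0-2 lower other mucins, 4-6 higher and 7-11 lower O-glycosylation genes, 3-4 higher and 4-6 lower partners, and 2-2 higher and 5-6 lower transcription factors. Averaging a gene's probe sets, which mixes in those at background, left 0 of the 9 genes over 2-fold higher and 1 lower (CEACAM6 -4.79, MUC20 -0.77, MUC4 0.49, MUC1 -0.32, CEACAM1 -0.31), with 1 lower CEACAM or PSG relative, 2 higher partners and 1 higher transcription factor. Among the other named genes it moved ST3GAL4 to -0.65, GALNT3 to -0.36, ERBB2 to -0.20, CTNNB1 to -0.66, FOXA1 to -0.47, GATA6 to -0.28 and CD164 to -0.43, by over 1.5 times each, and all 7 still passed limma. The cause of the other shifts was not tested. Trended, robust moderation gave 5181 lower genes, 5 lower relatives and 3 lower mucins. Without _x_at and _s_at probe sets there were 1819 higher genes, 1 lower relative and 0 lower mucins. The methods' t-test gave 3333 higher and 6188 lower genes, 5 lower relatives, 4 lower mucins and 17 lower O-glycosylation genes unadjusted, and 2678 higher and 3894 lower genes with 3 lower relatives after Benjamini-Hochberg adjustment. A fit over all probe sets, chosen after seeing the data, gave 2854 higher and 3382 lower genes and 3 lower relatives.

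No pairing of the samples by replicate number was visible. Deviations from the line means of same-numbered arrays correlated at -0.026, 0.016 and 0.047, and not every array correlated best with its own number. The labels do not say whether same-numbered samples were prepared together. With the replicate block, 1913 genes were higher and 1770 lower, with 2 higher and 6 lower O-glycosylation genes, 2 higher partners and 2 lower transcription factors, and GCNT1, FOXA1 and GATA6 had adjusted p-values of 0.0649, 0.0740 and 0.0585.

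Arrays give no counts, and signals at or under 2.65, as for CEACAM5 in PC9/gef and CEACAM7 and MUC13 in both lines, carry no order.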
